A study of Oryza sativa Indica Group with 8 samples.

Results

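Loci that were silent in GL and expressed in OE5 were described in RNA-seq data of rice leaves. GL is the elite indica variety Guangluai 4, which carries a loss-of-function allele of the clock gene OsPRR37, and OE5 is a transgenic line that overexpresses OsPRR37 in GL. Leaves came from plants of 15 days and were harvested at a single time in the morning. Each genotype had 2 libraries. Silent here means few counts at that time of day, and other times were not measured in these libraries. The members were selected on their raw counts, with at most 3 counts in both GL libraries and at least 10 counts in both OE5 libraries. Of the 35961 listed loci, 81 met these limits, and 1 hexokinase locus was left out, which gave 80 members. The gap between GL and OE5 is therefore what chose these loci. Their levels in the 2 genotypes are given as a description, with no test.

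OsPRR37 is a pseudo-response regulator, a transcriptional repressor of the circadian clock that acts at set times of day. A locus without reads in a leaf may be kept silent by DNA methylation and closed chromatin, which plants use above all on transposons and their neighbours, or may lack the factors that activate it. Reads of both genotypes were mapped to the reference of a japonica variety, Nipponbare, so only loci of that reference were counted. OE5 is a single transgenic line, so the transgene and any other difference of that line from GL cannot be told apart. In RNA from whole leaves, fewer cells that express a gene and less RNA per cell cannot be told apart either. The files do not pair locus identifiers with names, so markers of leaf tissue could not be checked.

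The library totals ran from 43423801 to 45708220 counts in GL and from 47685773 to 48284992 in OE5, so that OE5 had 1.08 times the counts of GL. Over all loci and libraries, a value of 4 (3335 times) was more common than 3 (3153 times), and 6 (2079 times) more common than 5 (1840 times). Each library total was also well above the number of mapped read pairs that the study reports for it. The mates of a read pair were thus largely counted singly, so that a count of 2 can be a single pair. At most 3 counts in both libraries were found for 10065 loci in GL and for 9393 loci in OE5. The members made up 0.795% of the loci silent in GL. The mirror condition, at most 3 counts in both OE5 libraries and at least 10 in both GL libraries, was met by 9 loci, or 0.0958% of the loci silent in OE5. When counts were scaled to the lowest library total before the limits were applied, 66 members and 8 mirror loci were left. With counts normalized by TMM, which scales libraries by the genes of typical fold change, 55 members and 9 mirror loci were left.

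The GL values were at or near zero throughout. Over the 80 members and both GL libraries there were 160 values, of which 92 were 0, 22 were 1, 30 were 2 and 16 were 3. For 33 members neither GL library had a count, and for the other 47 at least 1 library had. In sum, the members held 66 counts in GL-1 and 64 in GL-2, against 7849 in OE5-1 and 8635 in OE5-2. Levels are given in TPM, a unit of relative transcript abundance, which are counts scaled to gene length and to the library. The median member was at 0.802 TPM in OE5-1 and 1.01 TPM in OE5-2, below the median of all listed loci in the same libraries, which was 1.37 and 1.43 TPM. The mean OE5 level passed 1 TPM in 36 members, 5 TPM in 9 and 10 TPM in 7. The levels were uneven, as the 2 highest members carried 43.9% of the summed mean TPM of all 80 and the 10 highest carried 76.6%.

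**Figure D1:**
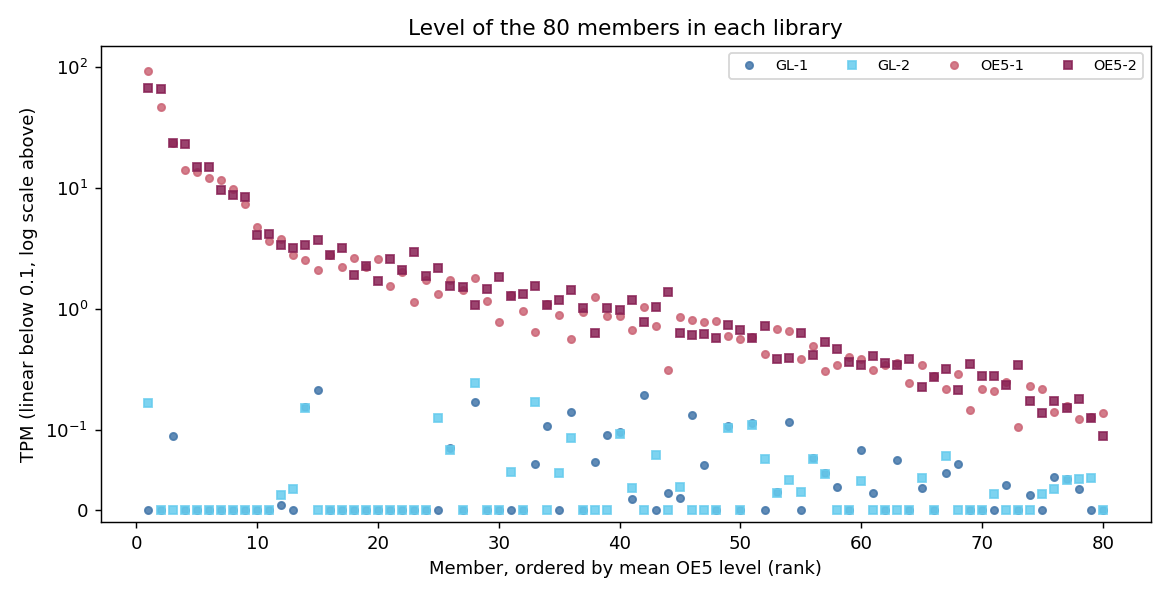
TPM of each of the 80 members in GL-1, GL-2, OE5-1 and OE5-2, with members ordered by their mean OE5 level on the x axis and TPM on the y axis (linear below 0.1 and on a log scale above). The OE5 points fall from 80.3 TPM to 0.114 TPM, while no GL point is above 0.245 TPM.

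The highest member was LOC_Os05g42160, a locus for which no name or role was given in the sources used here. It had 0 and 1 counts in GL and 589 and 432 in OE5, or 80.3 ± 18.6 TPM (SD, n = 2) in OE5. Its normalized counts in OE5 were 857 times those in GL, with a 95% exact counting interval from 154 to 33896, since the GL value rests on a single count. LOC_Os07g06834, also unnamed, had no count in GL and 1025 and 1472 counts in OE5, at 56.9 ± 13.6 TPM (SD, n = 2). Set against a floor of 3 counts in each GL library, it was at least 348-fold higher in OE5. No other member reached these levels, and the TPM ranges of both in OE5, from 67.1 to 93.4 and from 47.3 to 66.5, lay close together.

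The next levels in order belonged to LOC_Os12g21950 with a mean of 23.6 TPM (23.7 and 23.5) and LOC_Os07g32710 with 18.6 ± 6.34 TPM (SD, n = 2). LOC_Os12g21950 had 1 and 0 counts in GL and 275 and 279 in OE5. LOC_Os07g32710 had none in GL and 343 and 573 in OE5, and the wide spread of its replicates spans from 14.1 to 23.1 TPM, so its place in the order is loose. LOC_Os09g23250 followed with 14.3 ± 0.949 TPM (SD, n = 2), LOC_Os05g33670 with 13.4 ± 2.04 TPM (SD, n = 2) and LOC_Os09g15060 with 10.6 ± 1.45 TPM (SD, n = 2). The TPM ranges of LOC_Os09g23250 and LOC_Os05g33670 overlapped, whereas that of LOC_Os09g15060, from 9.62 to 11.7, lay just below the lower value of LOC_Os05g33670. None of these 3 had a count in GL. LOC_Os09g15060 had 1116 and 939 counts in OE5, at least 288-fold above the floor. It ranked lower in TPM than in counts because its relative length, the ratio of count to TPM set to 1 for the median locus, was 1.80, against 0.118 for LOC_Os05g42160 and 0.0940 for LOC_Os05g33670. The 10 highest also included LOC_Os06g03200 (9.32 ± 0.828 TPM, SD, n = 2), LOC_Os09g23270 (7.86 ± 0.781 TPM, SD, n = 2) and LOC_Os06g15610 (4.44 ± 0.464 TPM, SD, n = 2). LOC_Os06g15610 shows what a short locus does on this scale, as its 25 and 22 counts were only at least 6.58-fold above the floor.

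Most members rested on few counts. The lower of the OE5 counts was under 20 in 42 of the 80 members, at least 30 in 25 and at least 100 in 13. Of the 13 deepest members, 9 had no count in either GL library. In the 33 members without a GL count, the lower bound on the fold ran from 3.21 to 348, with a median of 9.54, and 17 of these bounds were under 10. In the other 47, the ratio of OE5 to GL ran from 3.64 to 857 with a median of 17.4, and the lowest bound of their 95% counting intervals was 1.46. Floors and intervals cover counting error only. They treat counts as independent, but mates were largely counted singly, so the intervals are too narrow and the floors too low.

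At the edge of the limits the members graded into their surroundings. The lower OE5 count was exactly 10 in 9 members, of which LOC_Os11g09418 (0 and 3 counts in GL, 10 and 10 in OE5) and LOC_Os05g45110 (2 and 1 in GL, 11 and 10 in OE5) had the lowest OE5 sums. Another 19 loci lay just outside with a lower OE5 count of 9, such as LOC_Os03g27370 with 16 and 9 counts and LOC_Os03g27400 with 9 and 15. On the GL side, 15 members had a count of 3 in at least 1 library, and 48 loci were left out for a highest GL count of 4. Of those 48, the highest in OE5 were LOC_Os12g02290, with 4 and 0 counts in GL and 61 and 167 in OE5, and LOC_Os04g41630, with 1 and 4 in GL and 95 and 127 in OE5. With the limits applied to 3 libraries only, between 152 loci (without OE5-2) and 199 loci (without GL-2) qualified.

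The OE5 replicates are set side by side as a description. The limits did not compare them with each other but required at least 10 counts in both. That restricts how far the replicates of members with few counts can differ. The counts of the OE5 libraries, scaled by TMM, differed by a median of 1.33-fold within a member. For the 13 members with at least 100 counts in both, the median was 1.14-fold and the largest 1.62-fold, in LOC_Os07g32710. In 8 members (10%) the replicates were over 2-fold apart, against 2.23% of the 21925 loci with at least 10 counts in both OE5 libraries. All 8 had no more than 100 counts in either library. Among the 67 members with such low counts the share was 11.9%, against 6.66% of the 5193 loci of the same range. The 2 sets were not matched on counts within that range, and 42 members had a lower count under 20. These shares are therefore not a like comparison. OE5-2 was the higher library in 7 of the 8. The widest gaps were in LOC_Os02g31850 (16 and 71 counts, 4.30-fold), LOC_Os01g23530 (12 and 40, 3.23-fold) and LOC_Os03g61150 (13 and 34, 2.54-fold). These 3 were chosen for their gaps, which were not tested, and none was in the tables of methylated genes described next.

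**Figure D2:**
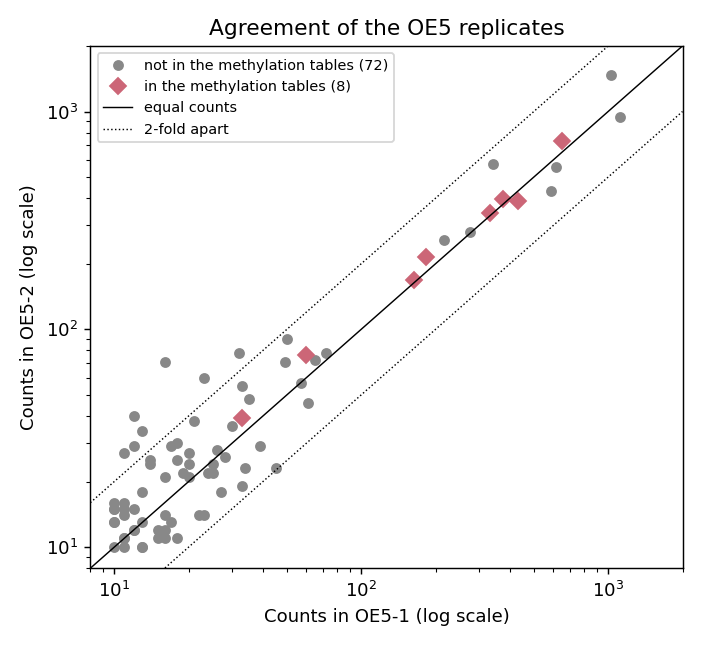
Counts of each member in OE5-1 (x axis) and OE5-2 (y axis), both on log scales, with the 8 members in the methylation tables as diamonds and the other 72 as circles. Points beyond the dotted lines, which mark counts 2-fold apart, lie at low counts, and all diamonds lie near the line of equal counts.

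The study lists differentially expressed genes that carry a differentially methylated region, in a table for the CG context and a table for the CHG context (H is A, C or T). Methylation itself was not analysed here, and the counts below use only the presence of a locus in these tables. Presence does not give a direction. Of the members listed, the study reports a gain of methylation in OE5 for LOC_Os09g21430 and a loss for the others. The copy of the CHG table used here is not complete. Together the tables held 34 loci in this copy, 16 for CG and 23 for CHG, and every presence or absence given here refers to those loci. Of the members, at least 8 were listed, which is 10% of the members and 23.5% of the loci in the copy. The study left out loci with a TPM sum under 2 in both genotypes, so 44 members could not be listed and 36 could. The 34 loci in the copy are few beside the 35961 loci with deposited counts, but only differentially expressed loci could be listed. All loci are thus not a like background for these shares. The study describes the listed genes as a small part of its differentially expressed genes. A locus had to be called differentially expressed on these same libraries to enter the tables, so the overlap is fixed in part by the choice of members. Of the 8, 4 were listed for CG, 5 for CHG and 1, LOC_Os05g33670, for both. None of the 8 had a count in GL, and their lower OE5 count was at least 33. Their median OE5 level was 5.89 TPM, and that of the 23 other members called higher by edgeR was 2.27 TPM. The median of all 72 others, 0.793 TPM, is not a like comparison, since it includes members too low to be tested. The OE5 replicates of the 8 differed by no more than 1.23-fold, and the call needed for a listing favours loci with such agreement.

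Among the 8, the tables name 4 by gene or class and mark all 4 as putative. OsCNGC15 (LOC_Os01g57370), named for the cyclic nucleotide-gated channels, which pass cations across membranes, had 163 and 169 counts in OE5. That is 2.24 ± 0.0249 TPM (SD, n = 2) and at least 46.5-fold above the GL floor. A zinc finger gene (LOC_Os09g21430), of a class of proteins that often bind nucleic acids, had 374 and 397 counts in OE5. Since it was the longest member, with a relative length of 3.47, its level was only 2.06 ± 0.0572 TPM (SD, n = 2), and its bound was at least 108-fold. The retrotransposon locus LOC_Os11g08610, a mobile element that copies itself through RNA, had 332 and 342 counts, or 2.79 ± 0.0182 TPM (SD, n = 2), at least 94.3-fold above the floor. Reads of such repeated elements can come from other copies, and how the counting treated them is not given in the sources used here. MEGL14 (LOC_Os01g42160) was the shallowest, with 33 and 39 counts, 3.91 ± 0.405 TPM (SD, n = 2) and a bound of at least 10.1-fold.

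The other 4 are marked as unknown and have no name. LOC_Os09g23250 had 650 and 729 counts in OE5 and the largest bound of the 8, at least 193-fold. LOC_Os06g03200 had 430 and 387 counts, at least 114-fold above the floor, and LOC_Os09g23270 had 183 and 215, at least 55.6-fold. LOC_Os05g33670 had 60 and 76 counts, at least 19.0-fold. Their counts were far apart, and their level in TPM ran only from 7.86 to 14.3. LOC_Os04g41630, which stood just outside the GL limit, is also in the CG table.

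The other 72 members, of which 44 were too low for the study's filter, were not in the copy. A locus missing from the copy could be among the 72. These included the 4 highest members in TPM, and 25 of them had no count in GL. With at least 30 counts in both OE5 libraries, 17 members outside the tables were left. Among the deepest of these was LOC_Os07g39460, a long locus (relative length 3.04) with 1 and 3 counts in GL and 613 and 557 in OE5. It stood at 3.58 ± 0.294 TPM (SD, n = 2), and its ratio of OE5 to GL was 246 (95% counting interval 95.7 to 903). LOC_Os11g31050 was similar in kind, with 0 and 2 counts in GL and 217 and 256 in OE5, a ratio of 199 (95% counting interval 54.7 to 1645).

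For the test across all genes, a locus was kept if the TPM of its libraries added up to at least 2 in either genotype. Of the 80 members, 36 passed this filter and 44 did not. Those 36 passed through OE5 alone, so they had to differ. With a threshold of 0.05 on the adjusted p of edgeR's quasi-likelihood test and of 1.5 on the fold, 31 of the 36 were called higher, where 2.11% of all 19280 tested genes were called higher. The limits used the same contrast, so nothing is read from this count, which was 20 without OE5-2. Of the 31 called members, 23 were in neither methylation table. The 5 without a call were LOC_Os01g31850, LOC_Os03g61150, LOC_Os04g56040, LOC_Os08g29900 and LOC_Os11g38780, named because so few were left, and all had fewer than 40 counts in each OE5 library. The 44 members that were not tested had mean OE5 levels from 0.114 to 0.979 TPM. LOC_Os04g25120 was at the top of that range with 72 and 78 counts and none in GL.

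The members were short. Their median relative length was 0.710, against 0.771 for all loci silent in GL and 1 for all listed loci, and 57 of the 80 were shorter than the median locus. The range ran from 0.0940 to 3.47. Length was not used by the limits, but at a given level a long locus gathers more counts, so limits on counts do not treat lengths alike.

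Members were found on all 12 chromosomes, which the locus identifiers give in their first number. Chromosomes 3 and 9 held 10 members each, chromosome 8 held 9 and chromosome 6 held 3. As a share of the loci silent in GL on the same chromosome, chromosome 9 was highest with 1.58% and chromosome 6 lowest with 0.364%. The number of members per chromosome is small, and the shares are given as a description.

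**Figure D3:**
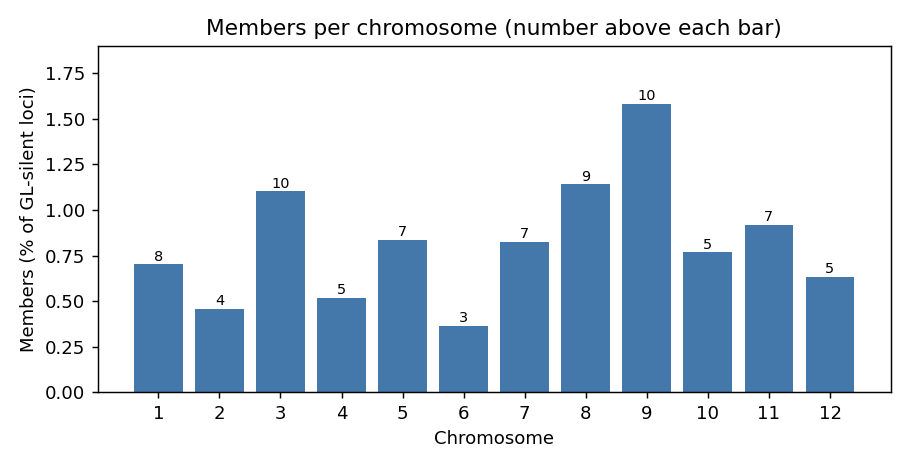
Members on each of the 12 chromosomes as a percentage of the loci with at most 3 counts in both GL libraries (y axis), with the number of members above each bar. Chromosome 9 stands highest with 10 members and 1.58%, and chromosome 6 lowest with 3 members and 0.364%.

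In the order of listed loci along a chromosome, 71 of the 80 members had no other member within 5 places. The remaining 9 formed 4 groups of direct neighbours, 1 of 3 loci and 3 of 2. The median distance from a member to the next was 128 listed loci. With members of at least 30 counts only, 3 loci were direct neighbours of another.

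The group of 3 was on chromosome 9. LOC_Os09g23250, LOC_Os09g23260 and LOC_Os09g23270 all had no count in GL, and in OE5 they had 650 and 729, 65 and 72, and 183 and 215 counts. The middle locus was the lowest in TPM as well, with 1.80 ± 0.104 (SD, n = 2), and it is the only one of the 3 that is in neither methylation table. The loci beside the group had reads in GL. LOC_Os09g23200 on one side had 10 and 15 counts in GL and 34 and 35 in OE5, and LOC_Os09g23280 on the other had 220 and 197 in GL and 284 and 334 in OE5, where edgeR gave a log2 fold change of 0.31 (adjusted p = 0.455). In the order of listed loci, a run of 3 silent loci was thus bounded by loci with reads in both genotypes. Every locus shown around the groups had a count in some library, so loci without any read may be missing from the list.

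On chromosome 12 a locus beside the members was also higher in OE5. LOC_Os12g21950 and LOC_Os12g21960 had 1 and 0, and 0 and 0 counts in GL, and 275 and 279, and 26 and 28 in OE5. The locus before them, LOC_Os12g21940, was expressed in both genotypes and higher in OE5, with 4.28 and 3.57 TPM in GL and 17.3 and 14.7 TPM in OE5. The edgeR estimate was 1.87 ± 0.17 (SE) in log2 units, at an adjusted p of 0.000362. On the other side, LOC_Os12g21980 had no count in GL and 17 and 5 in OE5, so it missed the limit in a single library. The 4 loci that follow LOC_Os12g21960 in the list had no count in GL at all, and 3 of them had no more than 2 in OE5. LOC_Os12g21970, between the pair and LOC_Os12g21980, had 2 and 0 counts in OE5.

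The other pairs were weaker. LOC_Os04g25120 and LOC_Os04g25130 had no count in GL, and 72 and 78, and 28 and 26 counts in OE5, between neighbours with no such difference: LOC_Os04g25100 had at most 1 count, and LOC_Os04g25140 had 13 and 25 in GL and 21 and 14 in OE5. LOC_Os11g36850 and LOC_Os11g36860 had 1 GL count each and from 16 to 27 counts in OE5, and the expressed locus beyond them, LOC_Os11g36960, was level at 331 and 324 counts in GL and 402 and 399 in OE5 (log2 fold change 0.04).

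A single member sat directly beside a mirror locus. LOC_Os02g30955 on chromosome 2 had no count in GL and 34 and 23 in OE5, and the next listed locus, LOC_Os02g30960, had 16 and 30 counts in GL and none in OE5. Neither locus had reads in both genotypes, and each genotype had reads at only 1 of the 2. The loci on both sides had reads in both: LOC_Os02g30910 had 21 and 57 counts in GL and 15 and 25 in OE5, and LOC_Os02g30974 had 65 and 80 in GL and 157 and 159 in OE5. Whether these adjacent loci overlap could not be read from the files, and the use of strand in counting is not given in the sources used here.

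**Figure D4:**
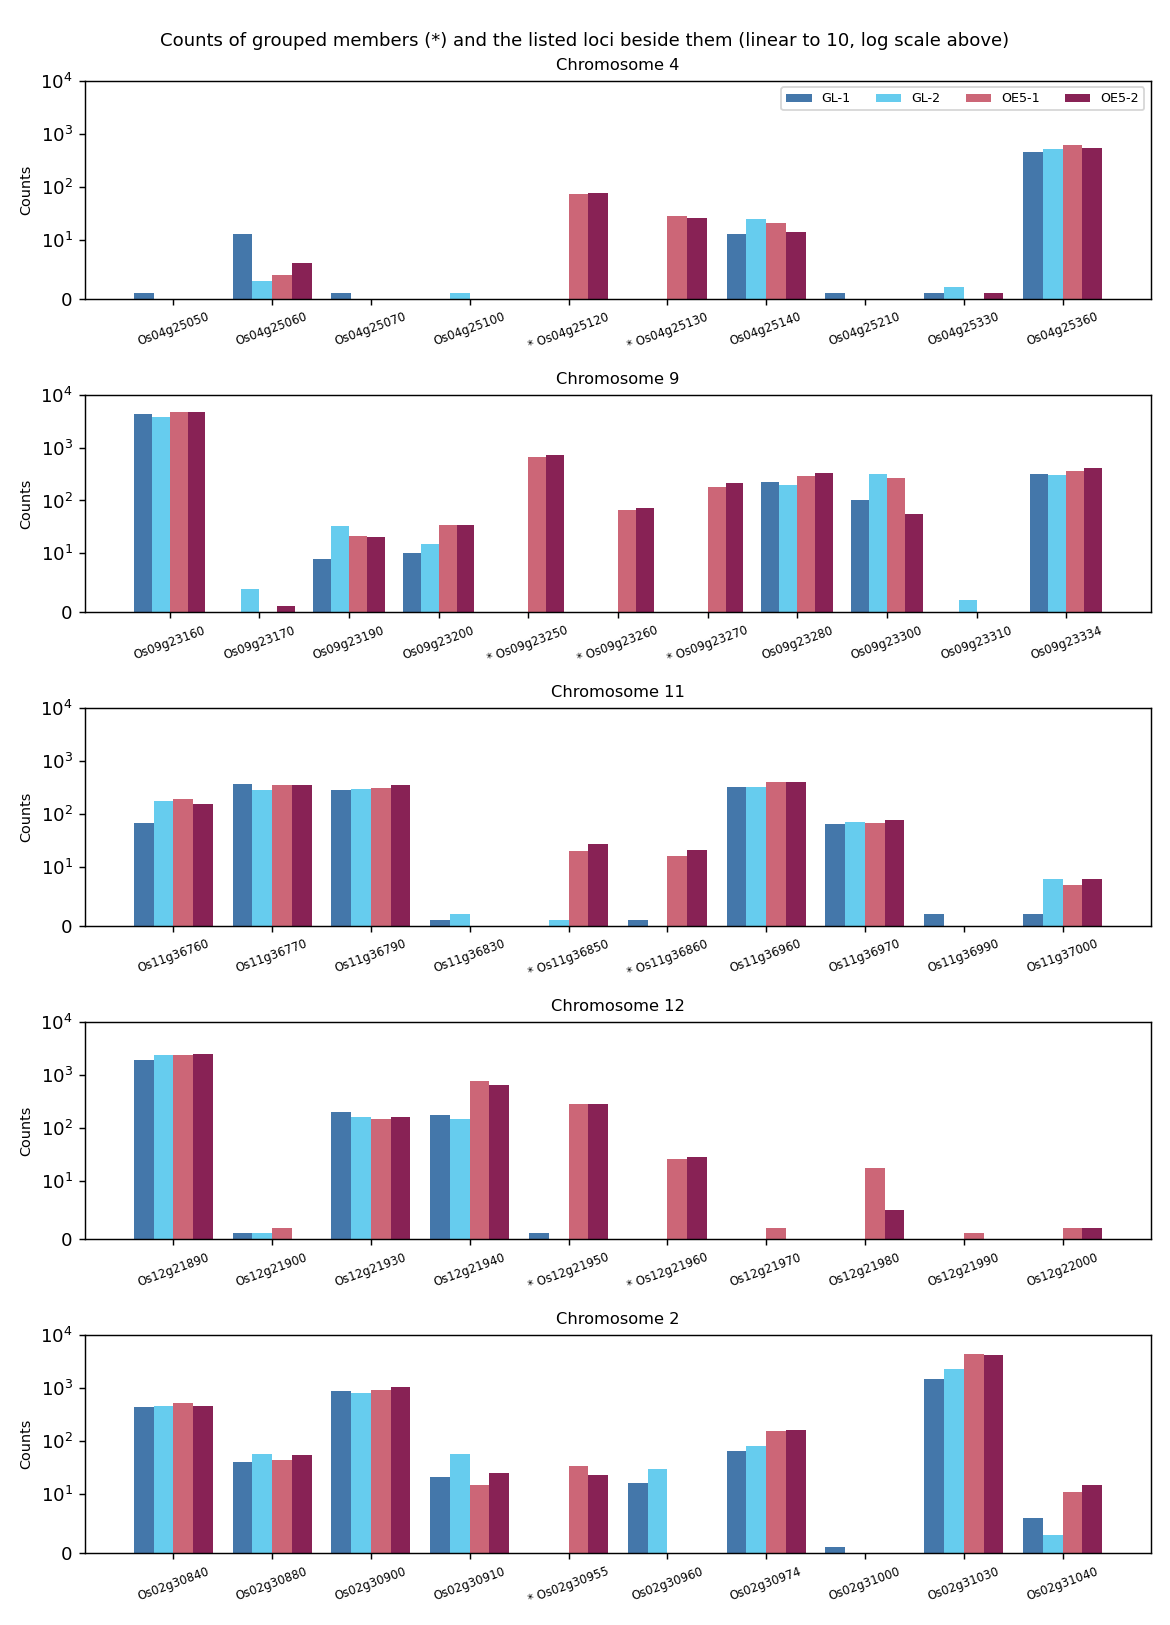
Counts in GL-1, GL-2, OE5-1 and OE5-2 (bars, linear up to 10 and on a log scale above) for the 4 groups of adjacent members, for the member beside a mirror locus on chromosome 2, and for the 4 listed loci on each side. Members are marked with an asterisk and show bars for OE5 with GL at or near 0. Some loci around them have bars of similar height in all libraries. Others have few or no counts, or differ between libraries, as LOC_Os12g21940 and the mirror locus do.

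Of the loci next to a member in the list, 36% were silent in GL, against 27.9% of all 35846 loci in the order, and their median mean level in GL was 0.521 TPM against 1.17 TPM. Members were left out of that share but are counted as silent neighbours here. For 12 members all direct neighbours were silent in GL, for 28 none was, and for the other 40 the locus on a single side was. Members thus occurred both among silent loci and next to expressed ones.

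Neighbours within 2 listed loci of a member numbered 300 after members were left out, of which 138 passed the TPM filter. By edgeR's quasi-likelihood test, 9 of the 138 (6.52%) were called higher in OE5, beside 2.11% of all tested genes, and 0 were called lower, beside 1.28%. At an unadjusted p under 0.05, 22 of the 138 were higher and 10 lower by edgeR, and DESeq2 and limma also called 0 lower. The median log2 fold change of the 138 was 0.06, beside -0.01 over all tested genes, so the typical neighbour hardly moved. Within 1 listed locus, 3 of 67 were called higher (4.48%), and within 5 it was 13 of 340 (3.82%). When libraries were left out, both the count and the share over all genes changed, but not always in step. Without GL-2 the share over all genes rose, while the count hardly did. Without OE5-1 or OE5-2, 4 of the 138 were called higher (2.90%), where the share over all genes was 0.737% and 0.814%. Without GL-1 it was 14 (10.1%), beside 3.96% of all genes.

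The 9 called neighbours lay within 2 listed loci of 10 members, and their log2 fold changes ran from 0.60 to 6.77. The largest, LOC_Os08g13430, was nearly silent in GL, with 11 and 6 counts, and had 1229 and 997 in OE5, or 26.9 and 21.4 TPM. In log2 units edgeR put it at 6.77 ± 0.26 (SE) above GL, with an adjusted p of 2.42e-06. The member beside it, LOC_Os08g13440, had 2 and 0 counts in GL and 20 and 24 in OE5, so the neighbour outside the limits was the stronger signal by far. LOC_Os09g11780, near the member LOC_Os09g11850, rose from 10 and 6 counts to 43 and 42, which edgeR estimated at 2.14 ± 0.46 (SE) in log2 units, with an adjusted p of 0.0354. LOC_Os12g21940 was described above as the locus before the chromosome 12 pair. The remaining 6 were expressed genes with GL means from 5.27 to 15.6 TPM and smaller changes. Reads that run on from an expressed gene into the next locus would also give counts there, and whether that happened was not tested.

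The mirror loci numbered 9, and from 22 (without OE5-1) to 60 (without GL-1) when the limits were applied to 3 libraries. Their mean GL level ran from 0.313 to 2.91 TPM, with a median of 1.17 TPM. The mean OE5 level of the 80 members ran from 0.114 to 80.3 TPM, with a lower median of 0.925 TPM. The highest mirror loci were LOC_Os09g04384, with 102 and 112 counts in GL and none in OE5, LOC_Os08g06830, with 27 and 66 in GL and 0 and 1 in OE5, and LOC_Os06g06300, with 40 and 62 in GL and 1 and 2 in OE5. Their mean GL levels were 2.91, 1.98 and 1.87 TPM. No mirror locus was among the 34 table loci that were read, but only 5 of the 9 passed the TPM filter and could be listed. Over all tested genes, 407 were called higher and 246 lower by edgeR, and by limma-trend on log2(TPM + 1) the split was 359 to 70. On that scale the median of all genes was 0.14 higher in OE5. These counts moved with single libraries, to 763 and 511 without GL-1, 719 and 321 without GL-2, 142 and 52 without OE5-1 and 157 and 64 without OE5-2.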

How the data were processed

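RNA-seq libraries of GL and OE5 leaves (2 each) were analysed. The bisulfite libraries were not used here. The authors trimmed reads with fastp 0.20.1, mapped them to Nipponbare (MSU v7.0) with Hisat2 2.1.0, and took read numbers and levels from TPMCalculator. Their deposited counts are unnormalized, and the deposited TPM values are scaled to length and library total. The members and lists were chosen with earlier results of these data known. None of the identifiers matched the RefSeq table (0), so names came only from the study's tables, no coordinates are given, and loci were ordered by their identifiers (115 without an ordered number were left out). Loci absent from the deposited counts have no place in this order, so direct neighbours are neighbours in the list only.

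The test over the kept genes was the robust quasi-likelihood test of edgeR 4.0.16 under R 4.3.3, with TMM factors and Benjamini-Hochberg adjusted p-values. Standard errors (SE) were obtained by dividing log2 fold changes by the root of the F statistic. DESeq2 1.42.0 and limma 3.58.1 (pseudocount 1 or 0.1) were alternatives, as were other filters and limits, omission of single libraries, and a replicate block. The fits were tested on simulated data. Floors are 3 counts per GL library, and counting intervals are exact (Clopper-Pearson, 95%). That libraries are biological replicates is stated by the study, and p-values measure only the spread between them. Named loci are members in the tables, the 10 highest in TPM, grouped members, those at the limits or with the widest replicate gaps, called neighbours and the highest mirror loci. Other loci were named after their values were seen.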

Additional observations from a re-analysis of the deposited data

How the results depend on the processing

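The number of members, 80, was 25 with at least 30 counts in OE5 and 33 with 0 counts in GL, and the mirror loci, 9, were 3 under either limit. With single libraries omitted, 152 to 199 loci met the limits and from 22 to 60 the mirror limits, since a limit on fewer libraries is easier to meet. The median OE5 level of members, 0.925 TPM, was 2.96 TPM for those of at least 30 counts and 0.461 as TMM-normalized CPM, which is another unit, and from 0.802 to 1.01 with a library left out. Of the 9 members next to another, 3 were left with at least 30 counts.

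Without a filter, 777 genes were called higher and 431 lower, 66 of the 80 members and, of the neighbours, 17 higher and 3 lower. With filterByExpr, 50 members were called of 71 tested, and 1 neighbour was lower. With limma-trend, 70 genes were lower with a pseudocount of 1 and 61 with 0.1. Within 5 listed loci, 2 neighbours were lower. With single libraries omitted, the lone library being assumed to vary like the other genotype, from 142 to 763 genes were higher and from 52 to 511 lower. From 20 to 32 members and from 4 to 14 neighbours were called higher, and from 0 to 2 neighbours lower. With the replicate block, 439 genes were higher and 269 lower, with 30 members and 9 neighbours higher. The study does not say that equal numbers mark a shared batch, and deviations of same-numbered libraries, compared across genes, correlated weakly (Pearson 0.13, Spearman -0.14), so the block was kept as an alternative. RLE and DESeq2 moved no number of calls by over 1.5 times. The cause of these shifts was not tested beyond what the settings change. Depth limits the members of few counts, of which 42 were under 20.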
